A study of Rattus norvegicus with 9 samples.

Results

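Collagen cross-linking enzymes were examined as a set of 8 genes, the 5 lysyl oxidases Lox, Loxl1, Loxl2, Loxl3 and Loxl4 and the 3 lysyl hydroxylases Plod1, Plod2 and Plod3. They were chosen by gene symbol among the 17602 genes of the deposited expression table, and all 8 were found there and passed the filter on low values. Expression was measured by RNA sequencing in 9 libraries from wild-type male Lewis rats, young adults at the time of the experiments. The Intact group was synovium around the medial meniscus of knees without surgery, the Sham group was synovium of the same place, taken 1 week after a sham operation, and the pMx group was regenerative tissue 1 week after partial medial meniscectomy, the removal of the anterior part of the medial meniscus. Each group had 3 libraries, titled as biological replicates. Whether a library held the tissue of 1 knee or of 1 rat was not given in the sources used here, so the p-values measure the spread between these libraries. The study operated on both knees for partial meniscectomy, so pMx libraries from the same rat are possible. The pMx and Sham groups differed in both the operation and the tissue that was taken, and these cannot be told apart. A single Intact library stood apart, since 5 skeletal muscle markers summed to 29623 TPM in Intact replicate 3 and to at most 1828 TPM elsewhere. That library was the lowest of its group for 7 of the 8 enzyme genes. Sham replicate 3 was lowest for 6 of the 8 and pMx replicate 3 for 5. Those 2 libraries had the smallest muscle sums of their groups, 140 and 59.0 TPM. The part of muscle in the enzyme values was not tested.

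Collagen becomes a load-bearing fiber only after its molecules are covalently tied to each other. Inside the endoplasmic reticulum, lysyl hydroxylases encoded by the Plod genes add hydroxyl groups to lysines of the new chains. After secretion, the copper-dependent lysyl oxidases turn lysines and hydroxylysines of the telopeptides, the short non-helical chain ends, into reactive aldehydes that form the cross-links. Lysyl oxidases also cross-link elastin. Tissues with high tensile load, among them meniscus, tendon and bone, depend on hydroxylysine-derived cross-links, and raised PLOD2 and LOX levels are a well known feature of fibrotic and healing tissue.

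At 1 week, 7 of the 8 genes were higher in the pMx group than in the Sham group, and Loxl4 was the exception. By an adjusted p below 0.05 in limma, 7 of 8 rose and 0 fell, against 17.7% of the 16512 genes tested that rose. At an unadjusted p below 0.05 the counts were also 7 and 0, against 22.1% and 23.5% of all genes. Lox led the set, followed by Plod2, Loxl2 and Plod3, and these 4 genes also passed the log2 fold change of 1 that the study required of a differentially expressed gene (DEG), against 3.36% of all genes that were DEGs in this direction. Of the calls near that threshold, Plod3 was at 0.97 without Sham replicate 3 and then not a DEG, and Loxl3 became a DEG at pseudocounts of 0.1 and 0.01 and without Sham replicate 1 or pMx replicate 1, with log2 fold changes of 1.00, 1.00, 1.01 and 1.02. Sham surgery alone gave another picture. In Sham versus Intact, Lox, Loxl1 and Loxl2 rose, 3 of 8, against 6.73% of all genes, and Lox was the 1 DEG among them, against 1.42%. None of the 3 Plod genes passed the test there, and 1 of 3, Plod1, was higher with an unadjusted p below 0.05, against 13.8% of all genes that were higher and 15% that were lower at that level. Without Intact replicate 3, Lox, Loxl1 and Loxl2 again passed in this comparison, with log2 fold changes of 0.91, 0.53 and 0.64. Median log2 fold changes over the 8 genes came to 1.01 for pMx against Sham and 0.28 for Sham against Intact, while those of all genes tested were -0.01 and -0.02.

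**Figure D1:**
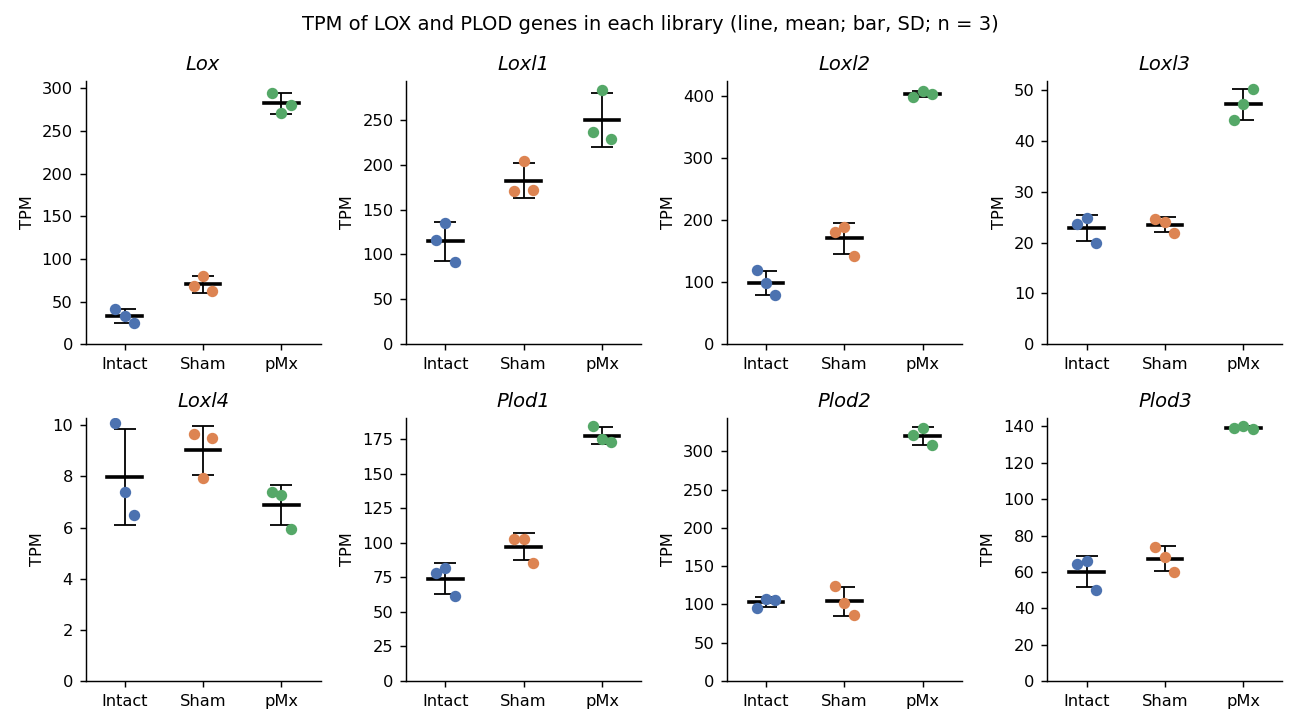
Expression of the 8 genes in TPM (vertical axes, each panel with its own range from 0) in the Intact, Sham and pMx groups, with 1 point per library and the mean and SD of 3 libraries per group. The pMx points lie above all Sham points for every gene but Loxl4, whose pMx points lie below them.

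The pMx range did not overlap the Sham range for any of the 8 genes, 7 of them higher and 1 lower, against 27% and 29% of all genes. Between Sham and Intact, 4 of 8 ranges did not overlap, all higher in Sham (Lox, Loxl1, Loxl2 and Plod1), against 14.2% of all genes that were higher and 16.4% that were lower without overlap. Between pMx and Intact, 7 were higher without overlap, against 26.9%, and Loxl4 overlapped. The tissues were bulk samples, so more cells expressing a gene and more RNA of that gene per cell cannot be told apart for any value given here.

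Lox, the founding member of the family and the major oxidase of fibrillar collagen, measured 41.22, 32.75 and 24.84 TPM in the 3 Intact libraries, 67.98, 80.49 and 61.86 TPM in Sham and 295, 270.86 and 280.75 TPM in pMx. All 3 groups were apart, with Intact lowest and pMx highest. Group means were 32.9 ± 8.19, 70.1 ± 9.50 and 282 ± 12.1 TPM (SD, n = 3), so that pMx was 4.03-fold higher than Sham and Sham was 2.13-fold higher than Intact. On the log2(TPM + 1) scale, Lox had a log2 fold change of 2.00 in pMx versus Sham (SE 0.17, adjusted p = 7.25e-05, limma), which ranked 58 among the 16512 genes by size of increase. In Sham versus Intact it was 1.09 (SE 0.17, adjusted p = 0.00764). That value sat close to the DEG threshold, and it was 0.91 without Intact replicate 3 and 0.99 without Sham replicate 2, with adjusted p of 0.00519 and 0.0343, so that the count of DEGs among the 8 genes became 0 in either case. Lox overlaps the pseudogene Rps3a-ps12 in the RefSeq annotation, which was not analysed here.

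Loxl2, which oxidizes collagen IV of basement membranes as well as fibrillar collagen, followed the same order at a higher level. Its values were 118.87, 98.36 and 79.09 TPM in Intact, 180.48, 189.5 and 141.57 TPM in Sham and 398.51, 407.31 and 403.63 TPM in pMx. The groups did not overlap, and the pMx libraries had a CV of 1.10%. Loxl2 had a log2 fold change of 1.25 against Sham (SE 0.15, adjusted p = 0.000398), and Sham one of 0.79 against Intact (SE 0.15, adjusted p = 0.0156).

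Loxl1, the family member tied most closely to elastic fibers, had the highest mean of the 8 genes in Intact, although Loxl2 was higher in Intact replicate 1 and Plod2 in Intact replicate 3. It measured 116.29, 135.53 and 91.91 TPM in Intact, 170.51, 204.25 and 172.27 TPM in Sham and 236.93, 283.6 and 228.54 TPM in pMx. The groups did not overlap, with means of 115 ± 21.9, 182 ± 19.0 and 249.7 ± 29.7 TPM (SD, n = 3). Its log2 fold change was 0.68 from Intact to Sham (SE 0.15, adjusted p = 0.0232) and 0.45 from Sham to pMx (SE 0.15, adjusted p = 0.0422), and the difference between these steps was not tested. The second of these calls was weak, since leaving out any of 6 libraries in turn (Intact replicate 1, Sham replicate 1 or 3, or any pMx library) gave adjusted p between 0.0551 and 0.137. For Sham versus Intact, the calls of Loxl1 and Loxl2 were both lost without Sham replicate 1 (adjusted p = 0.0597 and 0.0599) and without Sham replicate 2 (0.0866 and 0.0640).

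Loxl3, an oxidase needed for palate and spine development, showed no detectable response to sham surgery. The values were 23.7, 24.91 and 19.99 TPM in Intact and 24.66, 23.94 and 21.9 TPM in Sham, which overlapped, and 44.04, 47.16 and 50.24 TPM in pMx, all above both. Sham differed from Intact by a log2 fold change of 0.04 with a 95% confidence interval of -0.17 to 0.26, which does not show that the groups were equal. In pMx versus Sham the log2 fold change was 0.97 (SE 0.09, adjusted p = 0.000134), just under the DEG threshold of 1. The gene overlaps Htra2 in the RefSeq annotation, and whether reads were counted by strand was not given in the sources used here. Htra2 stayed between 46.72 and 53.69 TPM in the 9 libraries.

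Loxl4, the fifth oxidase, was the least expressed of the set. It measured 10.09, 7.38 and 6.49 TPM in Intact, 9.66, 7.92 and 9.5 TPM in Sham and 7.39, 7.28 and 5.96 TPM in pMx. Every pMx library was below every Sham library, while Intact spanned both. The log2 fold change in pMx versus Sham was -0.35 with a 95% confidence interval of -0.71 to 0.01 and did not pass the test (adjusted p = 0.123). It did so when only the 6 libraries of that comparison were fitted (adjusted p = 0.0479).

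Among the hydroxylases, Plod2 encodes LH2, the enzyme that hydroxylates telopeptide lysines and so sets the hydroxylysine-derived type of cross-link. Values of Plod2 were 95.27, 107.72 and 106.41 TPM in Intact, 124.04, 101.34 and 86.2 TPM in Sham and 321.65, 330.97 and 308.21 TPM in pMx. Sham libraries surrounded the Intact libraries on both sides, and every pMx library was far above both groups. Means were 103 ± 6.84, 104 ± 19.0 and 320.3 ± 11.4 TPM (SD, n = 3), a 3.08-fold difference between pMx and Sham. The log2 fold change in pMx versus Sham was 1.63 (SE 0.12, adjusted p = 4.33e-05), rank 144 of all genes, and the interval in Sham versus Intact ran from -0.28 to 0.27 (adjusted p = 0.991).

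Plod1 encodes LH1, which hydroxylates lysines within the collagen helix. It measured 78.5, 82.03 and 61.27 TPM in Intact, 102.6, 102.99 and 85.75 TPM in Sham and 184.43, 174.97 and 172.84 TPM in pMx, without overlap between any groups. From Sham to pMx its log2 fold change was 0.87 (SE 0.12, adjusted p = 0.000631). In Sham versus Intact it was 0.40 (SE 0.12, adjusted p = 0.0589), at the edge of the threshold, and it passed under 5 alternative settings, with adjusted p from 0.0123 under median-of-ratios rescaling to 0.0496 without Sham replicate 3.

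Plod3 encodes LH3, which also carries the glycosyltransferase activity that adds sugars to hydroxylysine. Its values were 64.36, 66.05 and 50.18 TPM in Intact, 73.71, 68.2 and 60 TPM in Sham and 139.33, 140.3 and 138.59 TPM in pMx. Intact and Sham overlapped, and the pMx libraries were nearly equal to each other, with a CV of 0.615%. Plod3 had a log2 fold change of 1.04 from Sham to pMx (SE 0.11, adjusted p = 0.000208) and of 0.16 in Sham versus Intact (95% confidence interval -0.09 to 0.42, adjusted p = 0.379). Plod3 overlaps the gene Znhit1, and the microRNA gene Mir702. Znhit1 measured 46.37, 49.14 and 45.44 TPM in Sham and 62.94, 54.16 and 59.05 TPM in pMx, so that every pMx library was above every Sham library, and its part in the Plod3 values was not tested.

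**Figure D2:**
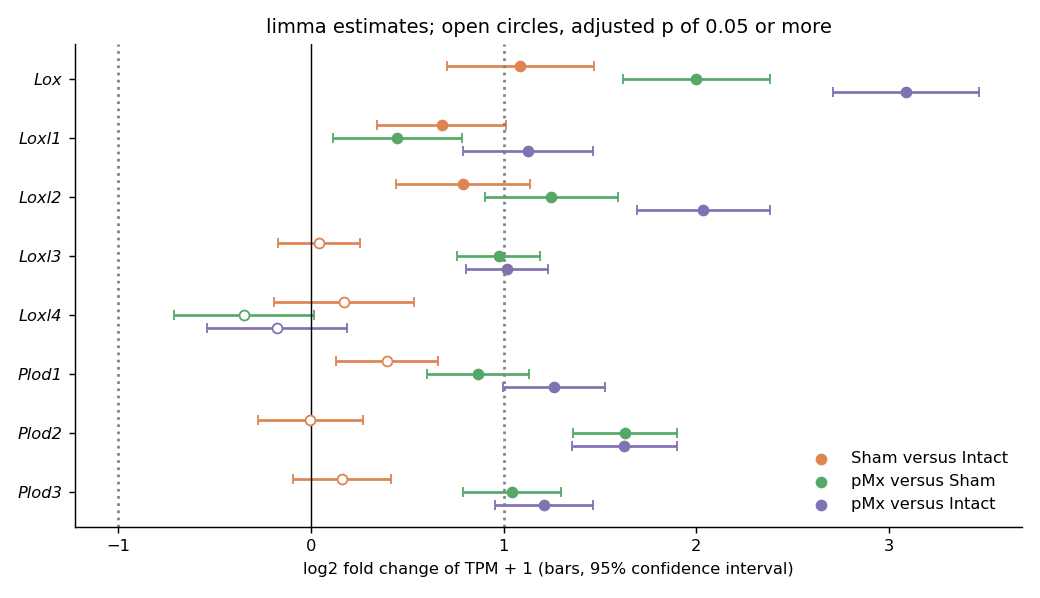
Log2 fold change on the log2(TPM + 1) scale (horizontal axis) of each gene in pMx versus Sham, Sham versus Intact and pMx versus Intact, with 95% confidence intervals from limma on 3 libraries per group. Filled points passed an adjusted p of 0.05, open points did not, and dotted lines mark log2 fold changes of 1 and -1. Lox lies farthest to the right in all 3 comparisons, and the Loxl4 intervals include 0 in each.

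Over the whole span from Intact to pMx, 7 of 8 genes rose and all 7 were DEGs, against 23.4% of all genes that rose and 6.4% that were DEGs in this direction. This contrast shares its libraries with both others and is given only to show how the change was divided. Sham and pMx were separate groups of different tissue, so the shares below are arithmetic and not stages of a time course. The log2 fold changes were 3.09 for Lox, 2.04 for Loxl2, 1.63 for Plod2, 1.26 for Plod1, 1.21 for Plod3, 1.13 for Loxl1 and 1.02 for Loxl3. Of this log2 change, the step from Intact to Sham made up 60.1% for Loxl1, 38.8% for Loxl2, 35.2% for Lox and 31.3% for Plod1. It made up 13.6% for Plod3, 4.12% for Loxl3 and -0.220% for Plod2. None of these 3 Sham steps passed the test, and neither did that of Plod1 (adjusted p = 0.0589, limma). Single libraries moved these 3 shares. Plod3 was at 3.70% without Intact replicate 3, 8.003% without Sham replicate 1 and 20.1% without Sham replicate 3, Loxl3 ran from -5.17% without Intact replicate 3 to 9.64% without Intact replicate 2, and Plod2 from -8.51% without Sham replicate 1 to 7.47% without Sham replicate 3. Loxl4 differed by -0.18 in pMx versus Intact (95% confidence interval -0.54 to 0.19), which did not pass.

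The promoters of the 3 hydroxylase genes and of Loxl4 are printed here because all 3 hydroxylases rose in pMx versus Sham and Loxl4 was the gene that did not. The RefSeq promoter table of build GRCr8 gives 250 bases before to 50 bases after each gene start and held 6 of the 8 genes, without Lox and Loxl2. Capitals mark ACGTG on either strand, a form of the core letters bound by hypoxia-inducible factors. The other form, GCGTG, was not searched for or marked, and it occurs in the printed windows of Plod1, Plod2 and Plod3. Sequences run from 5′ to 3′ on the strand of the gene. The coordinates belong to GRCr8, while the expression values were made on another build.
Plod2 promoter, chr8:101964068-101964367, plus strand: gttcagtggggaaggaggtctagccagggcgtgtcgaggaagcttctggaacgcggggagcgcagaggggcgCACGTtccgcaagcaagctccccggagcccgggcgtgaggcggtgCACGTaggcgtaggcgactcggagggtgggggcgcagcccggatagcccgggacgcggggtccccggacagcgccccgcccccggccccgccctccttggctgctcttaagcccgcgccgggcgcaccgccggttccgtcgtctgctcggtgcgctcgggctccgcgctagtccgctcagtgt
Plod1 promoter, chr5:163650688-163650987, minus strand: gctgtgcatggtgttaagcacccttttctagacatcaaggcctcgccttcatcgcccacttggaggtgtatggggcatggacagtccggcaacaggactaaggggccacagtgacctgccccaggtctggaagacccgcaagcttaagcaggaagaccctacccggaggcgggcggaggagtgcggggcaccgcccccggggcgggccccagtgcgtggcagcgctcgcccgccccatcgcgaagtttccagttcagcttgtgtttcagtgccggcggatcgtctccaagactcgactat
Plod3 promoter, chr12:25323582-25323881, minus strand: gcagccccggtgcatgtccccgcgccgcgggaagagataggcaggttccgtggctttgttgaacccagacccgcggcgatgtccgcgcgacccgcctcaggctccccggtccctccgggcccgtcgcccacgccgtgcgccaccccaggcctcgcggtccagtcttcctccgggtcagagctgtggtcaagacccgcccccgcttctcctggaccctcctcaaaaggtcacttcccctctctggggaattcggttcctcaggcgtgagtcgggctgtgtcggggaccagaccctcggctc
Loxl4 promoter, chr1:251365528-251365827, minus strand: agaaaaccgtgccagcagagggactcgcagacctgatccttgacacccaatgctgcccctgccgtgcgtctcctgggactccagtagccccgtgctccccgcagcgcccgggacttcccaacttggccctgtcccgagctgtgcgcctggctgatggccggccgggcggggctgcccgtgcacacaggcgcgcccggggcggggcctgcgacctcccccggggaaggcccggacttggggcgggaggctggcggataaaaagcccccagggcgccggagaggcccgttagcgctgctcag

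ACGTG was present 2 times in the Plod2 window, 178 and 133 bases before the gene start, and in none of the other 5 windows. Of all 33469 promoter windows in the table, 19.3% held it at least once and 7.62% held it at least 2 times. The GC-box letters CCGCCC were found in 4 of the 6 windows (Plod1, Plod2, Plod3 and Loxl4) and in 33.1% of all windows. CAGACA, the letters of a longer SMAD-binding element, occurred in 1 of the 6 (Loxl1) and in 21.1% of all windows. TGACTCA, the AP-1 letters, was in 0 of the 6 and in 4.63% of all windows. Both strands were searched for each motif, and no 2 of these motifs contain each other. The motifs were chosen after the expression values were seen, and a match describes the letters only.

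Levels were compared across genes on the TPM scale, which is per transcript length. In Intact synovium the order of the means was Loxl1, Plod2, Loxl2, Plod1, Plod3, Lox, Loxl3 and Loxl4. Neighbours in that order had overlapping ranges except Plod3 and Lox, and Loxl3 and Loxl4. In Sham the order was Loxl1, Loxl2, Plod2, Plod1, Lox, Plod3, Loxl3 and Loxl4, with overlap between Loxl1 and Loxl2, between Plod2 and Plod1, and between Lox and Plod3. In pMx it was Loxl2, Plod2, Lox, Loxl1, Plod1, Plod3, Loxl3 and Loxl4, and Lox and Loxl1 were the neighbours whose ranges overlapped. Loxl1 thus had the highest mean in both synovium groups and behind Loxl2, Plod2 and Lox in pMx.

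The balance inside each family shifted with these changes. Summed TPM of the 5 lysyl oxidases was 277 ± 47.8 in Intact, 455 ± 49.5 in Sham and 989 ± 24.4 in pMx (SD, n = 3). Lox made up 11.8 ± 1.29% of that sum in Intact, 15.4 ± 0.477% in Sham and 28.6 ± 1.73% in pMx, and Loxl1 made up 41.4 ± 3.92%, 40.1 ± 2.36% and 25.2 ± 2.36%. Loxl2 held 35.6 ± 2.71%, 37.3 ± 2.52% and 40.8 ± 0.800%, and Loxl4 went from 2.88 ± 0.394% in Intact to 0.695 ± 0.0713% in pMx. Put as a ratio, Lox to Loxl1 was 0.289 ± 0.0586 in Intact, 0.384 ± 0.0217 in Sham and 1.14 ± 0.163 in pMx, where the 3 libraries gave 1.25, 0.955 and 1.23. Lox was thus near the level of Loxl1 in the regenerative tissue and well under it in both synovium groups.

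Summed TPM of the 3 hydroxylases was 237 ± 19.0 in Intact, 268 ± 34.4 in Sham and 637 ± 15.1 in pMx. Plod2 made up 43.7 ± 4.62%, 38.5 ± 2.38% and 50.3 ± 0.825% of it, and Plod1 made up 31.1 ± 2.58%, 36.3 ± 1.90% and 27.8 ± 0.751%. The ratio of Plod2 to Plod1, of telopeptide to helical hydroxylase, was 1.42 ± 0.278 in Intact, 1.07 ± 0.124 in Sham and 1.81 ± 0.0764 in pMx. Intact replicate 3, the library with high muscle markers, was at 1.737, close to the lowest pMx library at 1.744. Intact replicates 1 and 2 were at 1.21 and 1.31. The Plod1 share overlapped between pMx and Intact.

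**Figure D3:**
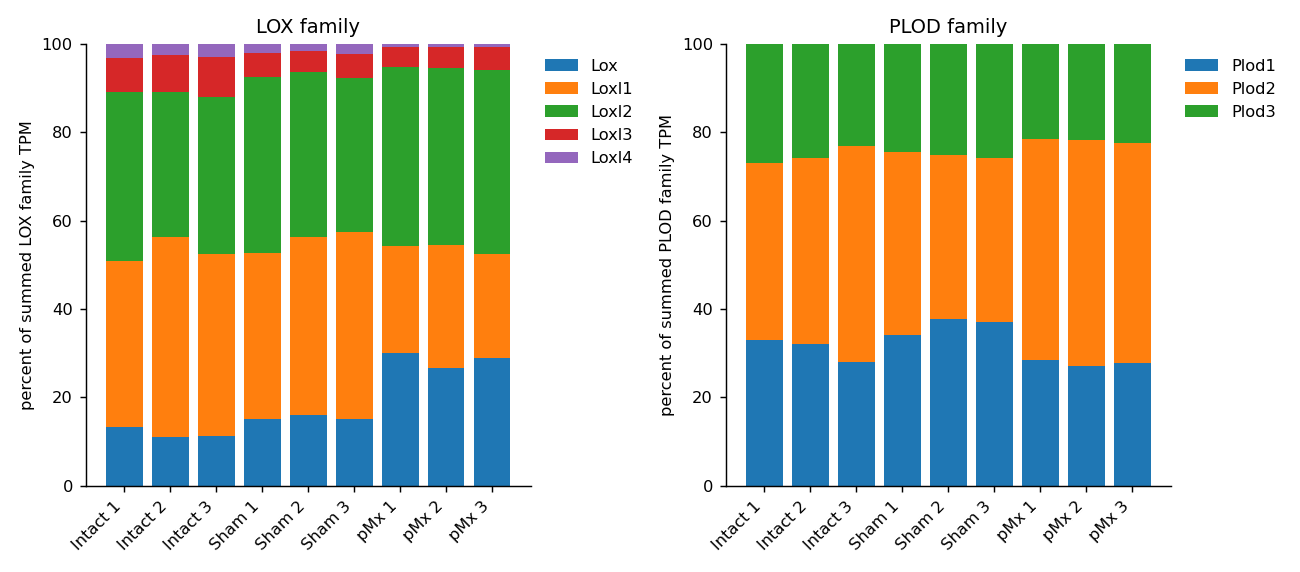
Share of each gene (vertical axis, percent) in the summed TPM of the 5 lysyl oxidases and of the 3 lysyl hydroxylases, as 1 stacked bar per library, with libraries ordered by group. Lox grows from 11.8% in Intact to 28.6% in pMx on average, Loxl1 shrinks from 41.4% to 25.2%, and Plod2 holds 50.3% of its family in pMx.

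The enzymes were next set against the RNA of their fibrillar collagen substrates, without elastin or collagen IV. These ratios of RNA do not measure cross-links. Col3a1, Col1a1 and Col1a2 made up most of the collagen sum, with pMx means of 17807, 15669 and 14118 TPM. Summed TPM of 9 fibrillar collagen chains was 7272 ± 1796 in Intact, 18724 ± 2310 in Sham and 51593 ± 2186 in pMx (SD, n = 3), which was 7.09-fold higher in pMx than in Intact, while the lysyl oxidase sum was 3.57-fold and the hydroxylase sum 2.69-fold higher. Per 100 TPM of these collagens, lysyl oxidases came to 3.87 ± 0.339 TPM in Intact, 2.44 ± 0.0467 in Sham and 1.92 ± 0.0348 in pMx, and hydroxylases to 3.38 ± 0.715, 1.44 ± 0.148 and 1.24 ± 0.0328. Lox had 0.455 ± 0.0377, 0.374 ± 0.0122 and 0.548 ± 0.0399 TPM per 100 TPM, and was the 1 gene with every pMx library above every library of both other groups. Plod2 had 1.50 ± 0.481, 0.556 ± 0.0908 and 0.621 ± 0.00699, and its pMx and Sham ranges overlapped. The other 6 genes were lower per collagen in pMx than in Sham, for example Loxl1 at 0.483 against 0.977 and Plod1 at 0.344 against 0.520.

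**Figure D4:**
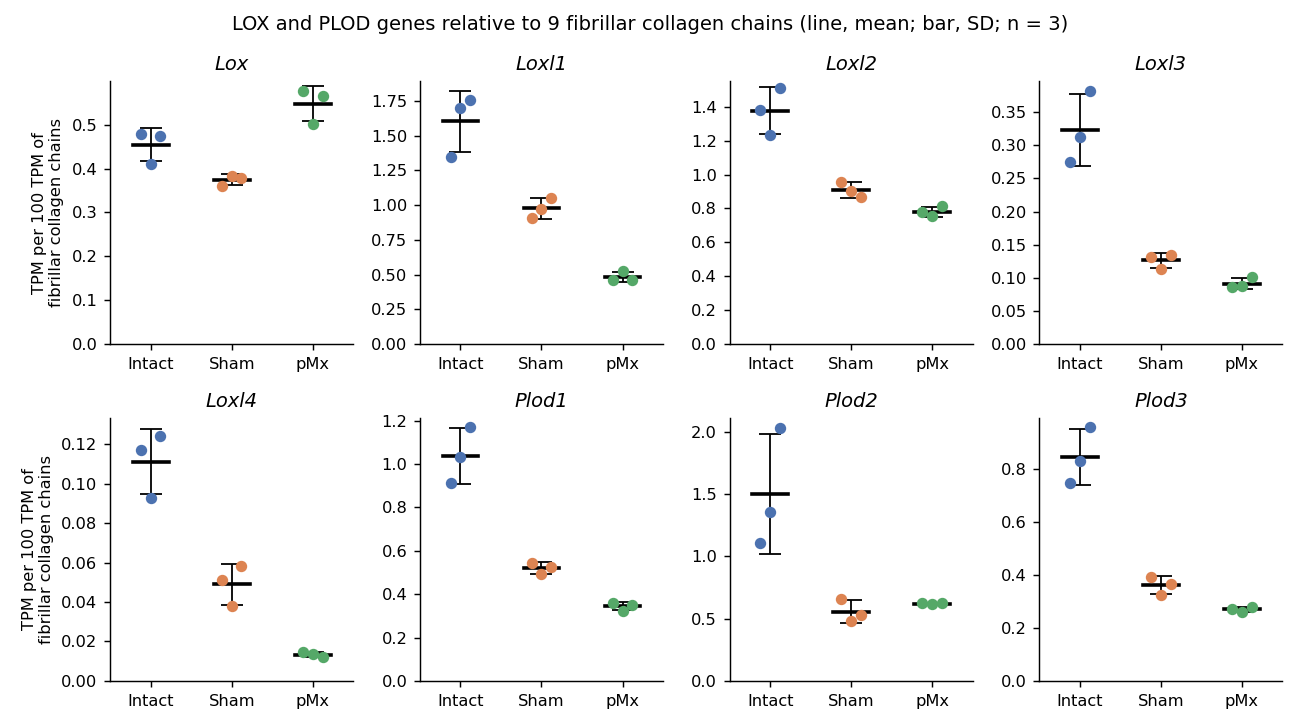
TPM of each gene per 100 TPM of the 9 summed fibrillar collagen chains (vertical axes, each panel from 0), with 1 point per library and the mean and SD of 3 libraries per group. The Intact mean is highest for every gene except Lox, whose pMx points, at a mean of 0.548, are above those of both other groups.

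Partner genes of the pathway were taken from a list of 43 genes, of which 42 were in the table. The list was chosen with earlier results of these data known, so its counts are a description and not a test of the pathway. In pMx versus Sham 27 of the 42 rose, 8 fell and 7 did not pass, against 17.7% and 18.9% of all genes that rose and fell. In Sham versus Intact 20 rose, 6 fell and 16 did not pass, against 6.73% and 5.97%. As DEGs, 14 rose and 5 fell in pMx versus Sham, against 3.36% and 4.85% of all genes, and 9 rose and 1 fell after sham surgery alone, against 1.42% and 0.533%. The median log2 fold changes of the list were 0.81 and 0.38.

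Of the 9 fibrillar collagens, the substrates, 7 rose in each comparison, and Col2a1 and Col11a2 did not pass in either. Col1a1, the main chain of tendon, bone and meniscus collagen, had means of 1516, 4501 and 15669 TPM in Intact, Sham and pMx and a log2 fold change of 1.81 in pMx versus Sham (SE 0.19, adjusted p = 0.000196). Col11a1, a chain that nucleates thin fibrils, rose by 3.30 (SE 0.32, adjusted p = 0.000133) from means of 12.9 TPM in Sham to 128 TPM in pMx. Elastin, the other substrate of lysyl oxidases, moved the opposite way. Eln fell from 326 ± 48.3 TPM in Sham to 102 ± 24.9 TPM in pMx, a log2 fold change of -1.68 (SE 0.21, adjusted p = 0.000411). Fbln5, the fibulin that ties LOXL1 to elastic fibers, fell by 1.65 (adjusted p = 7.92e-05), while Efemp2, the fibulin needed for LOX at elastic fibers, rose by 0.72 (adjusted p = 0.00459). The ratio of Loxl1 to Eln in TPM was 0.380 in Intact, 0.565 in Sham and 2.55 in pMx.

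Among the 7 partners of the hydroxylases and glycosylation enzymes, 6 rose and 1 fell in pMx versus Sham. Fkbp10, which encodes the FKBP65 chaperone needed for LH2 activity, rose by 1.41 (SE 0.14, adjusted p = 0.000137), and it rose also in Sham versus Intact, by 0.76 (adjusted p = 0.0126), where Plod2 did not pass. P3h4, a subunit of the complex that carries LH1, rose by 1.71 (adjusted p = 3.13e-05), and the ratio of Plod1 to P3h4 was 3.33 in Intact, 2.74 in Sham and 1.50 in pMx. Serpinh1, the collagen chaperone HSP47, rose by 1.37 (adjusted p = 8.44e-05). Colgalt1, a galactosyltransferase acting on hydroxylysine, rose by 0.95 (adjusted p = 0.000371), and its paralog Colgalt2 fell by 0.75 (adjusted p = 0.00247).

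Of the 6 prolyl hydroxylase genes, which stabilize the triple helix or modify single prolines, 5 rose and P3h2 fell by 1.11 in pMx versus Sham (adjusted p = 0.000212). P4ha3, a catalytic subunit, had means of 1.49 ± 0.25 TPM in Intact, 28.2 ± 6.27 in Sham and 156 ± 5.23 in pMx. Its log2 fold change was 3.53 in Sham versus Intact (adjusted p = 6.71e-05) and 2.45 in pMx versus Sham (adjusted p = 2.76e-05).

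Of the 6 measured genes that release or position active lysyl oxidase, 4 rose, Tll1 fell and Fn1 did not pass in pMx versus Sham. Bmp1, the protease that cleaves the LOX propeptide, had means of 85.7, 134 and 248 TPM in Intact, Sham and pMx and rose by 0.88 (adjusted p = 0.000341). Postn, the periostin scaffold that brings BMP1 to its substrates, rose by 1.68 (adjusted p = 0.000324), and Fmod, a small proteoglycan of collagen fibrils, by 1.40 (adjusted p = 0.000282). In copper delivery, the importer gene Slc31a1 rose by 0.64 (adjusted p = 0.000699), whereas Atp7a, the pump that loads copper into secreted enzymes, had a log2 fold change of 0.32 (adjusted p = 0.0533) and the chaperone gene Atox1 one of -0.12 (adjusted p = 0.257).

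The transglutaminases, which tie proteins together by another chemistry, were lower or did not pass. Of the 3 genes, 2 fell and 0 rose in pMx versus Sham by limma, against 18.9% and 17.7% of all genes. At an unadjusted p below 0.05 the counts were 3 and 0, against 23.5% and 22.1%. The gene added there, Tgm1, was at most 0.86 TPM in any library, and its Sham and pMx ranges overlapped. F13a1, factor XIII A, fell by 1.82 (adjusted p = 0.000229) and Tgm2 by 0.44 (adjusted p = 0.0271). Of 5 genes listed as inducers of cross-linking enzymes, 3 rose. Hif1a, the hypoxia-inducible factor subunit, rose by 0.91 (SE 0.09, adjusted p = 0.000175), Tgfb1 by 0.54 (adjusted p = 0.00413) and Tgfb2 by 0.45 (adjusted p = 0.00145). Ccn2, a gene that responds to TGF-beta and mechanical load, fell by 1.34 (adjusted p = 0.0003) and had also fallen in Sham versus Intact, by 1.05 (adjusted p = 0.00625).

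**Figure D5:**
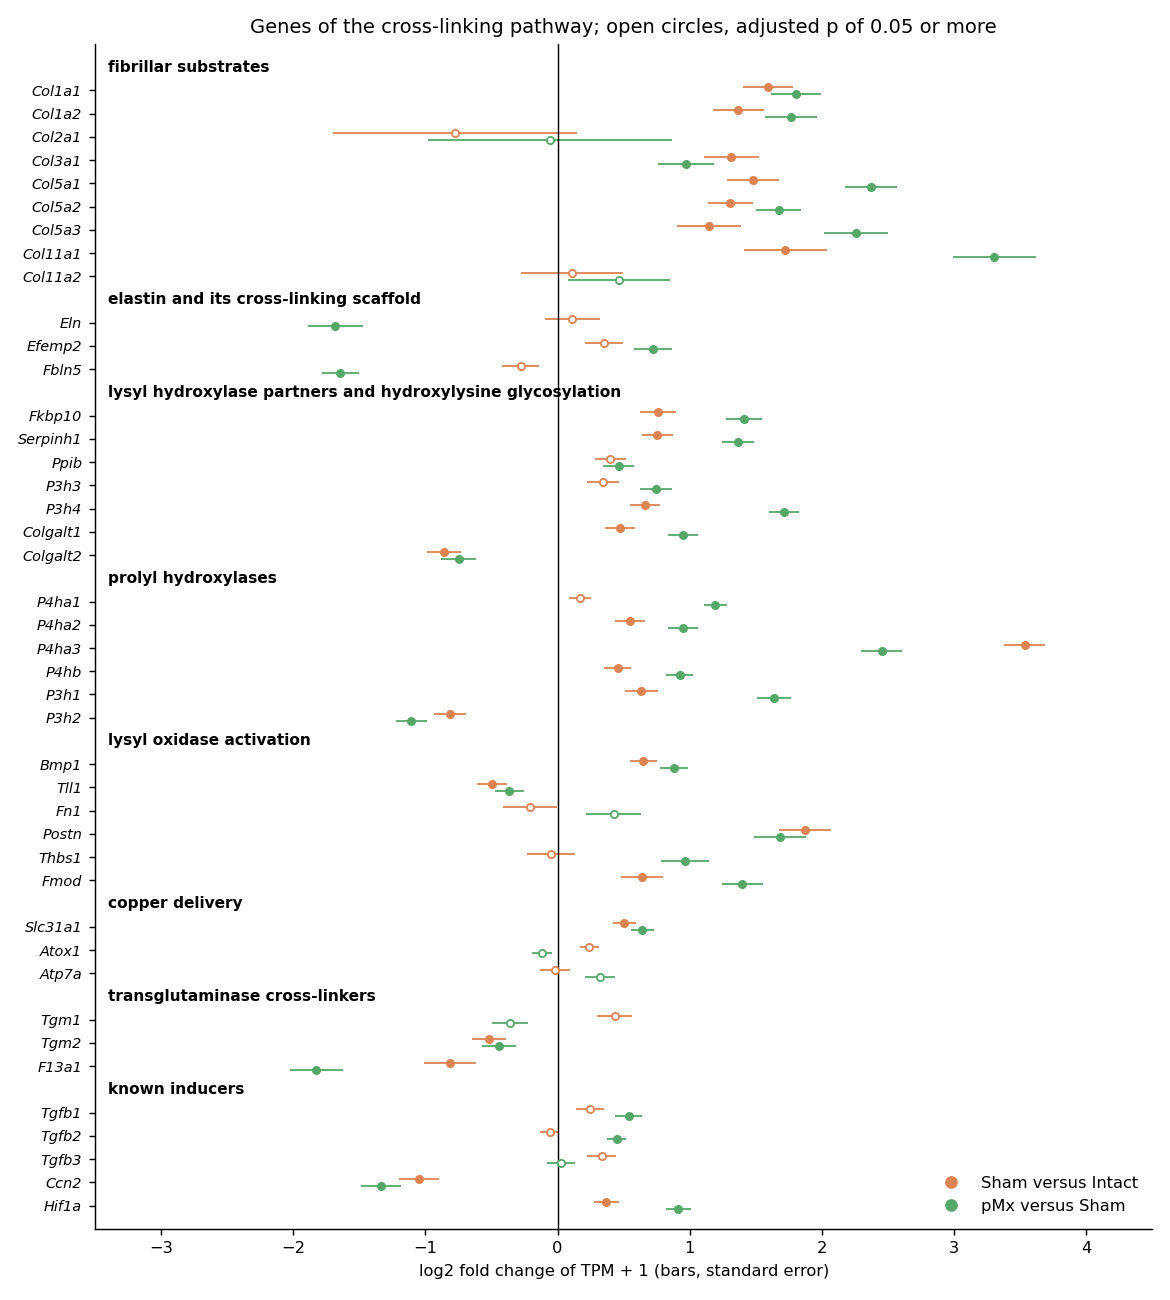
Log2 fold change on the log2(TPM + 1) scale of the 42 measured partner genes, grouped by role, in Sham versus Intact and pMx versus Sham, with bars of 1 SE from limma on 3 libraries per group. Collagen, chaperone and prolyl hydroxylase genes lie mostly above 0, with 27 of 42 rising in pMx versus Sham, and Eln, Fbln5, F13a1 and Ccn2 lie below.

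For each of the 8 genes, the 3 genes with the most similar profile were found among 13203 genes with a mean of at least 1 TPM, as the smallest root mean square difference of centred log2(TPM + 1) values over the 9 libraries. Such likeness is a description, and the 9 libraries are the same for every gene. Lox was closest to Col1a2 (0.140), Arhgef19 (0.144) and Tmem119 (0.145), and Plod2 to Sp7 (0.0616), Tnfrsf12a (0.114) and Csmd2 (0.139). The likeness of low genes rests on the pseudocount of 1, since Sp7 went from 0.483 TPM in Sham to 3.40 in pMx, 7.03-fold, and Csmd2 from 0.420 to 2.81 TPM, 6.69-fold, against 3.08-fold for Plod2. Col1a2 encodes the other chain of type I collagen. Loxl2 was closest to Myo7a (0.0361), Nek6 (0.0785) and Mcm3 (0.0848), and Loxl1 to Shc2 (0.0915), Fstl1 (0.0916) and Nt5c (0.107). Loxl3 lay near Tnfrsf10b (0.0583), Ssr1 (0.0589) and Eno1 (0.0796), and Loxl4 near Rspo1 (0.0442), Mtss1 (0.0721) and Crybg1 (0.0749). Plod1 was nearest Atp10a (0.0435), Pofut2 (0.0474) and Myof (0.0517), and Plod3 nearest Fmnl3 (0.0606), Slc7a1 (0.0660) and, shared with Plod1, Atp10a (0.0759). Within the set, the closest pairs were Loxl3 with Plod3 (0.101) and Plod1 with Plod3 (0.105), and Lox and Loxl4 were farthest apart (1.39).

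The tissue makeup differed between the groups in ways that move with these results, and its part in them was not tested. Summed TPM of 5 adipocyte markers was 3295 to 6976 in Intact, 4278 to 4610 in Sham and 302 to 475 in pMx, and all 5 fell in pMx versus Sham. Of 4 smooth muscle and pericyte markers 3 fell, with sums of 2253 to 2652 TPM in Sham and 1148 to 1365 in pMx. Of 3 synovial lining markers 1 fell, Clic5, whose values were 157 to 308 TPM in Sham and 8.86 to 17.3 in pMx. Prg4 and Has1 did not pass, with log2 fold changes of 0.12 and -0.47. The sums of the 3 overlapped, at 1437 to 1809 TPM in Sham and 1121 to 1786 in pMx. The 5 fibroblast markers summed to 7199 to 7762 TPM in Sham and 10570 to 11008 in pMx, where 2 rose, 1 fell and 2 did not pass. The 2 most abundant moved apart, since mean Lum went from 2180 to 7012 TPM and mean Dcn from 4683 to 2441 TPM. Thy1 also rose, and Pdgfra and Pdpn did not pass. The 4 chondrocyte markers summed to 499 to 599 TPM in Sham and 974 to 1176 in pMx. Most of these sums was Comp, with means of 512 and 840 TPM, which did not pass (adjusted p = 0.0865, limma). Acan and Sox9, 2 of the 4, rose, while Col2a1, the collagen that defines cartilage, was at most 2.26 TPM outside Intact replicate 1. The 4 macrophage markers had overlapping sums (353 to 415 TPM in Sham, 361 to 436 in pMx) but moved apart, since Cd163 fell by 2.24 on the log2 scale, Cd68 rose by 0.47 and the other two did not pass. The 4 endothelial markers also had overlapping sums (438 to 500 and 421 to 535 TPM), and of them Vwf fell by 0.69. In Sham versus Intact, where Lox, Loxl1 and Loxl2 rose, 3 of 4 macrophage markers rose, with sums of 181 to 305 TPM in Intact against 353 to 415 in Sham, and all 3 synovial lining markers fell, with sums of 2601 to 3572 against 1437 to 1809 TPM. In the same comparison 3 of 5 fibroblast markers rose (4952 to 6410 against 7199 to 7762 TPM) and 2 of 4 smooth muscle and pericyte markers fell (3150 to 5040 against 2253 to 2652 TPM). The quality table of the study also ranks the groups by RNA integrity in the order Intact, Sham, pMx, from lowest to highest, so RNA quality and group cannot be told apart.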

How the data were processed

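The authors deposited gene expression as TPM, made by BGI (DNBSEQ sequencing of poly(A) RNA, Dr. Tom system). TPM is scaled to transcript length and to a fixed total per library, so an increase of some genes lowers all others, and read depth is unknown. The submitters' processing notes name HISAT2 2.0.4 and mRatBN7.2, while the counting tool, annotation and filters are not given in the sources used here. Groups came from sample titles. For 16512 of 17602 genes (above 0 TPM in at least 3 of 9 libraries), log2(TPM + 1) was fitted with 1 mean per group. The fit used all 9 libraries in limma 3.58.1 (R 4.3.3, eBayes with trend), with Benjamini-Hochberg adjustment per comparison. It was checked on simulated data with independent noise and changes well beyond the DEG threshold, which does not test calls near that threshold. The study's thresholds were used for DEGs, a log2 fold change beyond 1 in either direction with an adjusted p below 0.05, but the test behind its Q value is not named. Figures were drawn with Matplotlib 3.10.9. Genes named were the 8 enzymes, the fixed partner and marker lists, and the 3 most similar genes of each enzyme. The enzymes and lists were chosen with earlier results of these data known. Alternatives were a replicate block, quantile normalization or median-of-ratios rescaling, no filter or a filter at a mean of 1 TPM, pseudocounts of 0.01 and 0.1, eBayes without trend, a fit of the compared groups alone, other call thresholds, and leaving out each library. Of the gene identifiers, 17419 (99.0%) matched RefSeq, whose GRCr8 tables gave overlapping genes and promoters.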

Additional observations from a re-analysis of the deposited data

How the results depend on the processing

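With an adjusted p below 0.05 alone in limma, the calls among the 8 enzymes were 7 in place of 4 in pMx versus Sham and 3 in place of 1 in Sham versus Intact, and those among the partner genes were 35 in place of 19 and 26 in place of 10. Leaving out 1 library at a time gave 3 to 5 enzyme calls in pMx versus Sham, 0 to 1 in Sham versus Intact and 5 to 7 in pMx versus Intact, and 19 to 22, 7 to 10 and 29 to 30 partner calls. In Sham versus Intact 2 values near 0 changed sign. Loxl3 ran from -0.048 (without Intact replicate 3) to 0.10 (without Intact replicate 2) over the fits that left out 1 library, and Plod2 from -0.14 (without Sham replicate 1) to 0.12 (without Sham replicate 3). Plod2 was also at 0.016 under median-of-ratios rescaling and 0.0026 under quantile normalization. The calls of Loxl1 and Loxl2 in Sham versus Intact were lost in a fit on the 6 libraries of that comparison (adjusted p = 0.0654 and 0.0634). The cause of these changes was not tested. Over all genes, a pseudocount of 0.1 gave 2229 DEGs in pMx versus Sham in place of 1355, and 612 in Sham versus Intact in place of 323. The study itself reported more DEGs than the main fit in both comparisons, so the DEG counts given here are not those of the study.

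Same-numbered libraries did not deviate together in every pair of groups (mean correlation of deviations 0.30 for pMx and Sham, -0.30 for Sham and Intact, -0.49 for pMx and Intact). With 3 libraries per group these correlations cannot decide whether the numbers pair the libraries. A fit with the replicate block gave 4, 1 and 7 enzyme calls and 19, 10 and 29 partner calls in the 3 comparisons, the same counts as without the block.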
